A study of Mus musculus with 56 samples.

Results

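The genes examined here encode the subunits of oxidative phosphorylation, the electron transport chain and the ATP synthase of the inner mitochondrial membrane, measured in the blood of mice carrying internal 90Sr. They were taken by name: every gene of the array whose symbol begins with Nduf, Uqcr, Atp5 or one of Cox4 to Cox8, or equals Sdha, Sdhb, Sdhc, Sdhd, Cyc1 or Cycs. The rule found 95 of the 30199 named genes on the array, and 92 of them were among the 18796 genes that passed the detection filter (significantly above background and not a non-uniform outlier on over 75% of arrays). By role the 95 were 36 genes of complex I, 4 of complex II, 9 of complex III, cytochrome c, 19 of complex IV, 16 of complex V, 7 assembly factors of complex I, the supercomplex factor Cox7a2l, and 2 genes that share the prefix without being subunits. Those 2 were Atp5sl, now named Dmac2 and known as a complex I assembly factor, and the pseudogene Atp5c1-ps. Ndufa4 and Ndufa4l2 were named for complex I but are counted here with complex IV, where Ndufa4 is now placed.

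C57BL/6 mice, 10 to 12 weeks old on receipt, were given 200 kBq of a mixed 85/90Sr chloride solution by tail vein injection (called 90Sr-injected here), and control mice received the saline vehicle. Whole blood was taken by cardiac puncture 4, 7, 9, 25 or 30 days later, stabilised in PAXgene solution and depleted of globin transcripts, and each mouse was measured on 1 one-color Agilent array. Each day had its own control mice, with 4 mice per group at day 4 and 6 per group at the other days, so 56 arrays in all. The comparison asked, within each day, which transcripts differ between 90Sr-injected and control mice.

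Complex I takes electrons from NADH and complex II takes them from succinate, and both hand them to ubiquinone. Complex III passes them to cytochrome c, and complex IV, cytochrome c oxidase, passes them to oxygen. Complexes I, III and IV pump protons, and complex V uses the resulting gradient to make ATP. Complexes I and III to V are built from subunits of both the nuclear and the mitochondrial genome, and all of complex II is nuclear. Mature red cells have no mitochondria, whereas reticulocytes, platelets and white cells still carry them, so whole blood RNA for these subunits comes from a mixture of cell types. In such bulk RNA, fewer cells of a type and less RNA per cell cannot be told apart.

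Levels are given as log2 processed signal less the array median, and changes as the mean of 90Sr-injected mice less the mean of control mice on that log2 scale. The level of 1 probe is not set against that of another, except where genes are grouped by their control level. Spots that rose well above background numbered 17809 to 24698 on the arrays of control mice and 14389 to 22524 on those of 90Sr-injected mice. The label of whole blood was borne out by its markers, since 9 of 9 reticulocyte, 10 of 10 platelet, 11 of 13 T cell, 8 of 12 B cell, 8 of 11 neutrophil, 5 of 7 NK cell and 4 of 8 monocyte markers cleared the background on each of the 56 arrays. The arrays lay on 14 slides of 4, of which 4 slides held both groups (2 and 2), 1 at each of days 7, 9, 25 and 30. At days 7 and 30, the 4 90Sr arrays of 1 slide were scanned on another date than all control arrays of that day. Scan date was thus partly confounded with 90Sr at these 2 days. All arrays of each other day shared 1 scan date. At day 4 each group had a slide of its own, so that slide and 90Sr cannot be told apart there. At days 7 to 30 a fit with the slide as a block (other than a random block) takes its change from the mixed slide alone. That is 2 control against 2 90Sr-injected mice, and the other slides enter only the spread. Among the arrays, replicate 1 of the 90Sr-injected group at day 9 lay apart from its group in the mean level of complexes I, III, IV and V, and 26 members passed the study's threshold at day 9 without it, in place of 24.

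The subunits did not move as a block. In the order of days 4, 7, 9, 25 and 30, 11, 5, 13, 21 and 18 of the 92 detected members were lower in 90Sr-injected mice and 2, 2, 11, 0 and 10 were higher, at the study's threshold of an unadjusted p under 0.001 (limma) with at least a 2-fold change. Of the 2 higher at day 7, 1 was Ndufa4l2, well above background on 0 control and 2 90Sr arrays of that day. Members past the threshold in either direction were 14.1%, 7.61%, 26.1%, 22.8% and 30.4% of those tested. Over all genes tested the share past the threshold was 19.5%, 14.6%, 18.1%, 25.5% and 31.7% in the same order, above the members' share at each day but day 9. Lower calls made up 17.4%, 12.1%, 13.7%, 19.8% and 16.1% of all genes and higher calls 2.14%, 2.59%, 4.42%, 5.69% and 15.5%.

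At a Benjamini-Hochberg adjusted p under 0.05 (limma, over all 18796 genes) both directions were common. By day, 35, 33, 28, 42 and 34 members were lower and 23, 35, 32, 19 and 29 were higher. In either direction this rule took 53.9%, 57.6%, 42.6%, 64.1% and 64.1% of all genes. Over all genes 33.6%, 33.6%, 27.3%, 38.2% and 29.7% were lower and 20.3%, 24%, 15.2%, 25.8% and 34.3% were higher by the same rule. The median change of the 92 members was -0.12, 0.09, 0.07, -0.22 and -0.01, against -0.01, 0.00, -0.08, -0.10 and 0.12 for all genes. The levels of the groups did not overlap at all, with the 90Sr-injected mice below, for 36, 27, 22, 37 and 14 members (32.2%, 23.7%, 18.5%, 27.6% and 13.4% of all genes) and, with them above, for 24, 13, 3, 5 and 21 (18.2%, 8.46%, 5.23%, 7.79% and 15.1%). In either direction that was 60, 40, 25, 42 and 35 members and 50.5%, 32.1%, 23.8%, 35.4% and 28.4% of all genes. At 1 or more days 42 members passed the study's threshold, and 48.3% of all genes did. At an adjusted p under 0.05 on all 5 days 24 members were lower and 16 were higher, where 20.6% and 2.39% of all genes did so. In these comparisons the members and all genes were not matched by level in control mice.

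The split between lower and higher depended on how the arrays were scaled. Scaling on the 75th percentile moved the median change of all genes by 0.48, 0.35, 0.39, 0.48 and 0.19. It turned the counts at the study's threshold to 1, 0, 1, 2 and 10 lower and 19, 14, 27, 7 and 20 higher. Scaling on the median of the probes well above background on all 56 arrays gave 4, 1, 4, 4 and 18 lower and 12, 8, 23, 4 and 10 higher, and quantile normalization gave 2, 1, 4, 4 and 19 lower and 3, 1, 4, 4 and 2 higher. Among all genes the former gave 1523, 903, 1356, 1273 and 3046 lower and 1747, 1466, 1635, 3410 and 2711 higher. The latter gave 1651, 931, 1472, 1492 and 2882 lower and 914, 841, 884, 1847 and 2451 higher. Background correction by normexp with each array's median background went the other way, with 22, 16, 22, 31 and 20 members lower and 0 higher at every day. Higher calls were rare in all genes too, with 2294, 1355, 2470, 3001 and 1950 lower and 2, 2, 4, 10 and 188 higher. This form of normexp was not planned and was added beside the planned form with each spot's own background. Its fitted mean was below 0 on 11 of 56 arrays. Results below are therefore given first for the members with an adjusted p under 0.05 (limma) in the same direction at every day under 4 scalings. Some members outside that list, such as Cox8a, also kept their sign at every day under these scalings.

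Under all 4 scalings (array median, 75th percentile, median of bright probes, quantile), 16 members were lower and 10 were higher at an adjusted p under 0.05 (limma) on all 5 days. This list was drawn up after the values were seen, and so was the choice to name those of its genes that do not recur below. The 16 lower members were 17.4% of those tested, where 12.7% of all genes met the same condition. The 10 higher members were 10.9%, where 1.57% of all genes did. The members and all genes were not matched by level in control mice. The higher members other than Cox6b2 and Atp5s had control levels above 8. Above 8 lay 1429 of all genes, with a median change of 0.258 averaged over the days. Above it also lay 25 of the members tested, with 0.683. The part of level in these shares was not tested. The lower members included the complex I core subunits Ndufs3, Ndufs8 and Ndufv1, the complex I accessory subunits Ndufa8, Ndufa9, Ndufab1, Ndufb5 and Ndufc2, the assembly factor Ndufaf1, the complex II anchors Sdhc and Sdhd, cytochrome c1 (Cyc1), Atp5g1 and Atp5sl. The higher members were Ndufa1, Uqcrh, Uqcr11, Cox6b2, Cox6c, Cox7a2, Cox7b, Atp5k, Atp5l and Atp5s. On the array-median scale the changes of the lower members over the 5 days lay between -1.85 and -0.64 with a median of -1.13, and those of the higher members between 0.40 and 1.71 with a median of 0.85. With normexp and each array's median background, 80 of the 80 changes of the lower members kept their sign, and 43 of the 50 of the higher members did.

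**Figure D1:**
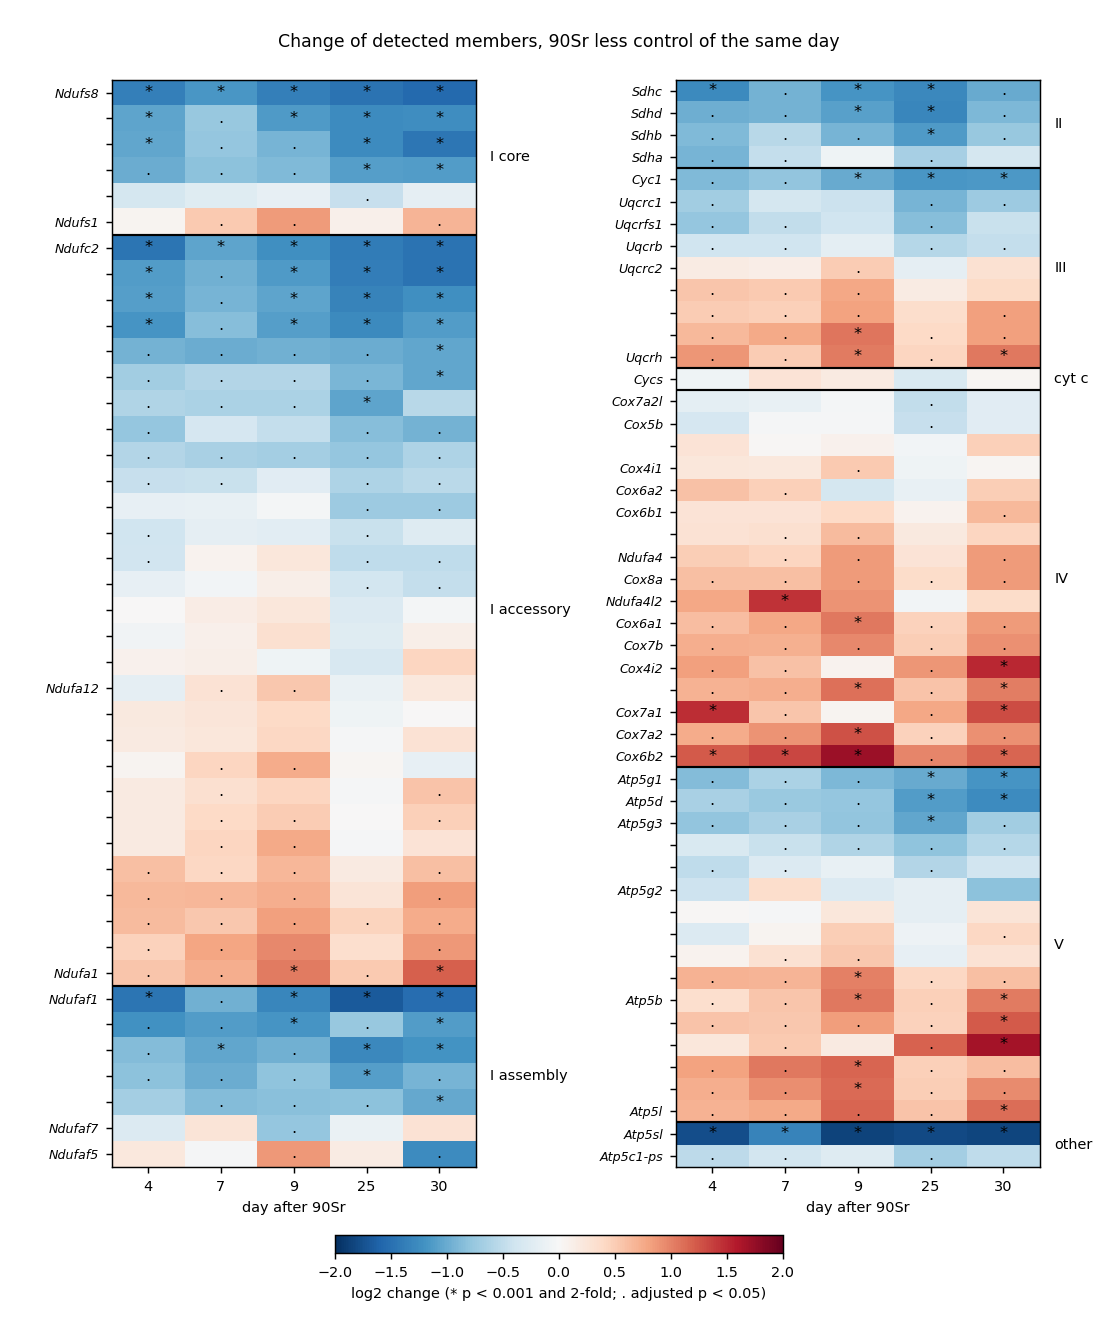
Heat map of the log2 change (90Sr-injected less control mice) of 91 of the 92 detected members at each of the 5 days, 1 row per gene and grouped by complex, with blue lower and red higher and the genes described singly labelled. All values of complex II are below 0, those of complex IV are mostly red, and complexes I, III and V hold both.

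Upstream sequence was looked at for these members that moved together, since promoters of nuclear-encoded respiratory genes are known for binding sites of NRF1, of ETS-family factors such as GABP, and of YY1. RefSeq promoter windows (GRCm38.p6, 250 bases before the start to 50 after it) were matched for 77 of the 95 members. On either strand, the near-palindromic NRF1 motif was present in 24.7% of the 77 windows and in 5.19% of the windows of all 27025 genes. The ETS motif CCGGAAG was in 22.1% against 9.93%, the YY1 motif AAGATGGC in 14.3% against 3.19%, and the SP1 motif GGGCGG in 45.5% against 38.2%. Among the lower members with a window (13 genes) the shares were 15.4%, 30.8%, 23.1% and 38.5% in that order, and among the higher ones (9 genes) 11.1%, 44.4%, 0% and 44.4%. With so few genes these shares are a description of the windows only. The 140 bases before the start are shown for 3 lower members (Ndufa8, a complex I accessory subunit; Ndufs3, a complex I core subunit; Sdhd, an anchor of complex II) and 3 higher ones (Atp5k, subunit e of the ATP synthase; Uqcrh and Uqcr11, small subunits of complex III), because each holds an NRF1 or ETS match. All 6 are on the minus strand and are written 5′ to 3′ in the direction of transcription, with matches to the NRF1, ETS or YY1 motif in capitals.
Ndufa8, chr2:36049339-36049478: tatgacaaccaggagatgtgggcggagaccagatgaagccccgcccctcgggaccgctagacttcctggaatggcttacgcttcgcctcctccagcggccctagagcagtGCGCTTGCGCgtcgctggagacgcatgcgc
Ndufs3, chr2:90904722-90904861: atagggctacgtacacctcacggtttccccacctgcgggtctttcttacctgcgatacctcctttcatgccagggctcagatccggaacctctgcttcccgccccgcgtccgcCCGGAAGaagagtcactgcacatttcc
Sdhd, chr9:50603850-50603989: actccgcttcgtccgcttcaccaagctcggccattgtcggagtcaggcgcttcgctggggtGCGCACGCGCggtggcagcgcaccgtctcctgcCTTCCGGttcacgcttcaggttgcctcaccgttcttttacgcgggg
Atp5k, chr5:108434400-108434539: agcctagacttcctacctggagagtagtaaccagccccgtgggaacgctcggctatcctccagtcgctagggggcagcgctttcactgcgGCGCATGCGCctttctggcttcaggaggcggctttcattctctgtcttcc
Uqcrh, chr4:116075071-116075210: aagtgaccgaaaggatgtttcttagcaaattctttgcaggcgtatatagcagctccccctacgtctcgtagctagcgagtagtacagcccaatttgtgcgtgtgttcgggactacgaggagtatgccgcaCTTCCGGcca
Uqcr11, chr10:80406822-80406961: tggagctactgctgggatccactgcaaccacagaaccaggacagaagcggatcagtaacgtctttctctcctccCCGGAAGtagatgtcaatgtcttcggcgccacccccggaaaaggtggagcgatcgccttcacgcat

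Complex I was divided. Of its 7 nuclear-encoded core subunits, which carry the flavin and the iron-sulfur clusters, 5 had an adjusted p under 0.05 (limma) and were lower on every day, Ndufs3, Ndufs8 and Ndufv1 among them. Lower on every day by this rule were 20.6% of all genes. The median change of the 7 was -1.04, -0.77, -0.93, -1.26 and -1.11. It stayed below 0 at all 5 days under the 4 scalings, between -1.31 and -0.42, and under normexp with each array's median background, between -1.49 and -1.11.

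Ndufs8, an iron-sulfur core subunit whose probe lies at chr19:3911177-3911236 (mm9), was 1 of 3 members called at all 5 days, a condition that 6.35% of all genes met. Its level at day 4 was 4.00, 4.06, 4.22 and 3.82 in the control mice and 2.73, 2.44, 2.80 and 2.64 after 90Sr. At day 7 the lowest, median and highest levels were 4.00, 4.28 and 4.58 in controls and 2.42, 3.18 and 3.47 in 90Sr-injected mice. At day 9 they were 3.65, 3.85 and 4.11 against 1.90, 2.57 and 3.10. Every 90Sr-injected mouse of these days lay below every control mouse of its day. At day 25 the lowest, median and highest levels were 4.16, 4.34 and 4.65 against 2.48, 2.84 and 3.42, and at day 30 3.07, 3.95 and 4.29 against 1.85, 2.01 and 2.98. Again the groups did not overlap, and at day 30 the lowest control lay just above the highest 90Sr-injected mouse. The changes were -1.37, -1.17, -1.36, -1.48 and -1.55 (SE 0.14, 0.17, 0.22, 0.19 and 0.27), a level 2.25- to 2.92-fold lower, with adjusted p of 0.000154, 0.000173, 0.000238, 0.000142 and 0.000298 (limma). In the fit with the slide as a block, the changes at days 7 to 30 were -1.32, -1.45, -0.85 and -1.09, with adjusted p of 0.00566, 0.0248, 0.159 and 0.116.

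Not all core subunits shared this pattern. Ndufs1, which carries iron-sulfur clusters of the NADH-oxidising arm, had changes of 0.05, 0.52, 0.86, 0.11 and 0.68 and adjusted p of 0.738, 0.00164, 0.00104, 0.562 and 0.00519 (limma), so that it was higher at days 7, 9 and 30. At these 3 days it was above 0 with an adjusted p under 0.05 under all 4 scalings, while under normexp with each array's median background no change of Ndufs1 at these days was above 0.104. Ndufv2, a partner of Ndufv1 in the same arm, had changes of -0.35, -0.23, -0.16, -0.46 and -0.17 and was lower by the adjusted p at day 25 alone.

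The 29 accessory subunits of complex I, which surround the core and are needed for its assembly and stability, had median changes of -0.16, 0.10, 0.23, -0.31 and -0.17. By adjusted p 12, 9, 8, 14 and 12 of them were lower and 5, 10, 9, 2 and 7 were higher. Of all genes 33.6%, 33.6%, 27.3%, 38.2% and 29.7% were lower by this rule and 20.3%, 24%, 15.2%, 25.8% and 34.3% higher. Ndufc2, a subunit of the membrane arm, was called lower at all 5 days. Day 4 levels were 5.27, 5.16, 5.52 and 4.49 in controls and 4.09, 3.32, 3.69 and 3.53 in 90Sr-injected mice. Its changes were -1.45, -1.05, -1.23, -1.40 and -1.48 (SE 0.24, 0.19, 0.23, 0.24 and 0.29, adjusted p 0.00111, 0.000606, 0.000727, 0.00033 and 0.000609, limma). The groups did not overlap until day 30, when the levels were 3.81, 5.03 and 5.67 (lowest, median, highest) in controls and 2.90, 3.4 and 3.97 in 90Sr-injected mice. Fitted with the slide as a block, its changes at days 7 to 30 were -1.34, -1.60, -0.78 and -0.93, with adjusted p of 0.0104, 0.0172, 0.219 and 0.218.

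Ndufa1, a small subunit of the membrane arm encoded on the X chromosome, was the accessory subunit with the highest mean change, although its change was -0.04 at day 4 and -0.05 at day 25 under normexp with each array's median background. Its changes were 0.55, 0.72, 1.04, 0.53 and 1.2, with adjusted p of 0.0127, 0.000681, 0.00203, 0.016 and 0.000129 (limma). At day 30, the day of its largest change, its level was 8.84, 9.08 and 9.35 (lowest, median, highest) in controls and 9.76, 10.31 and 10.67 in 90Sr-injected mice. Ndufa12, an accessory subunit of the matrix arm, had changes of -0.17, 0.29, 0.54, -0.13 and 0.21 and passed the adjusted threshold at days 7 and 9 only.

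The assembly factors of complex I, which help to build the enzyme and leave it, had median changes of -0.83, -0.96, -0.84, -0.81 and -1.12 over 7 genes. Most of the 7 had control levels between 2 and 4, where all genes had median changes of -0.589, -0.5, -0.514, -0.73 and -0.451. The part of level in their change was not tested. Ndufaf1, which acts in building the membrane arm, was lower on every day, with changes of -1.46, -0.96, -1.31, -1.69 and -1.52 (adjusted p 0.00114, 0.000224, 0.000512, 0.000214 and 0.000109, limma). Ndufaf5 and Ndufaf7, enzymes that modify core subunits of complex I, did not follow. Ndufaf5 had changes of 0.21, -0.02, 0.86, 0.17 and -1.26 and Ndufaf7 changes of -0.27, 0.26, -0.78, -0.13 and 0.28. In the control mice alone the mean level of Ndufaf5 differed by 3.14 between days. Ndufaf6 was not well above background on any 90Sr array at days 9 and 30, and no fold is given for it there. The renamed Atp5sl had the lowest mean change of all members. At day 4 its level was 5.05, 4.88, 5.39 and 4.54 in controls and 3.58, 3.02, 3.20 and 2.98 in 90Sr-injected mice, and its changes were -1.77, -1.34, -1.85, -1.81 and -1.84 (SE 0.21, 0.23, 0.26, 0.25 and 0.19, adjusted p 0.00023, 0.000436, 0.000122, 0.00015 and 2.48e-05, limma). The groups did not overlap at any day. In the fit with the slide as a block, the changes at days 7 to 30 were -1.83, -2.0, -1.1 and -1.79, with adjusted p of 0.00374, 0.0166, 0.171 and 0.0359.

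All 4 subunits of complex II, the succinate dehydrogenase that also serves the tricarboxylic acid cycle, had a mean change below 0. By adjusted p (limma) 4, 4, 3, 4 and 3 of the 4 were lower at the 5 days and none was higher. The lower share of all genes by this rule was 33.6%, 33.6%, 27.3%, 38.2% and 29.7%. The median change of the 4 was -0.96, -0.75, -1.01, -1.21 and -0.83, and it stayed below 0 at each day under the 4 scalings, between -1.21 and -0.41, and under normexp with each array's median background, between -1.45 and -1.0. Sdha, the flavoprotein, had changes of -0.93, -0.48, -0.09, -0.67 and -0.36 and missed the adjusted threshold at days 9 and 30 (adjusted p 0.0136, 0.00374, 0.775, 0.00263 and 0.104). Sdhb, the iron-sulfur protein, had changes of -0.89, -0.56, -0.93, -1.13 and -0.76 and passed at every day (adjusted p 0.00248, 0.00475, 0.00543, 0.000395 and 0.00601, limma). The anchors Sdhc and Sdhd hold the enzyme in the membrane, and Sdhd had changes of -0.98, -0.94, -1.08, -1.31 and -0.91.

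Sdhc (probe at chr1:173059348-173059407, mm9) had the lowest mean change in complex II. Its level at day 4 was 4.22, 4.13, 4.5 and 3.88 in controls and 3.04, 2.87, 3.02 and 2.69 in 90Sr-injected mice. At day 7 the lowest, median and highest levels were 4.21, 4.39 and 4.57 against 2.66, 3.50 and 3.90. At day 9 they were 3.77, 4.17 and 4.76 against 2.20, 3.14 and 3.73, in a wide 90Sr group that still lay below the controls. At day 25 they were 4.4, 4.72 and 4.85 against 2.59, 3.49 and 3.95. At day 30 they were 3.14, 4.25 and 5.12 against 2.51, 3.20 and 3.80, and the groups overlapped through replicate 4 of the controls. The changes were -1.28, -0.95, -1.18, -1.29 and -1.0 (SE 0.16, 0.17, 0.26, 0.23 and 0.30), with adjusted p of 0.000287, 0.000583, 0.00224, 0.00042 and 0.00883 (limma). Fitted with the slide as a block, they were -1.14, -1.26, -0.73 and -0.61 at days 7 to 30, with adjusted p of 0.0182, 0.0686, 0.221 and 0.443.

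**Figure D2:**
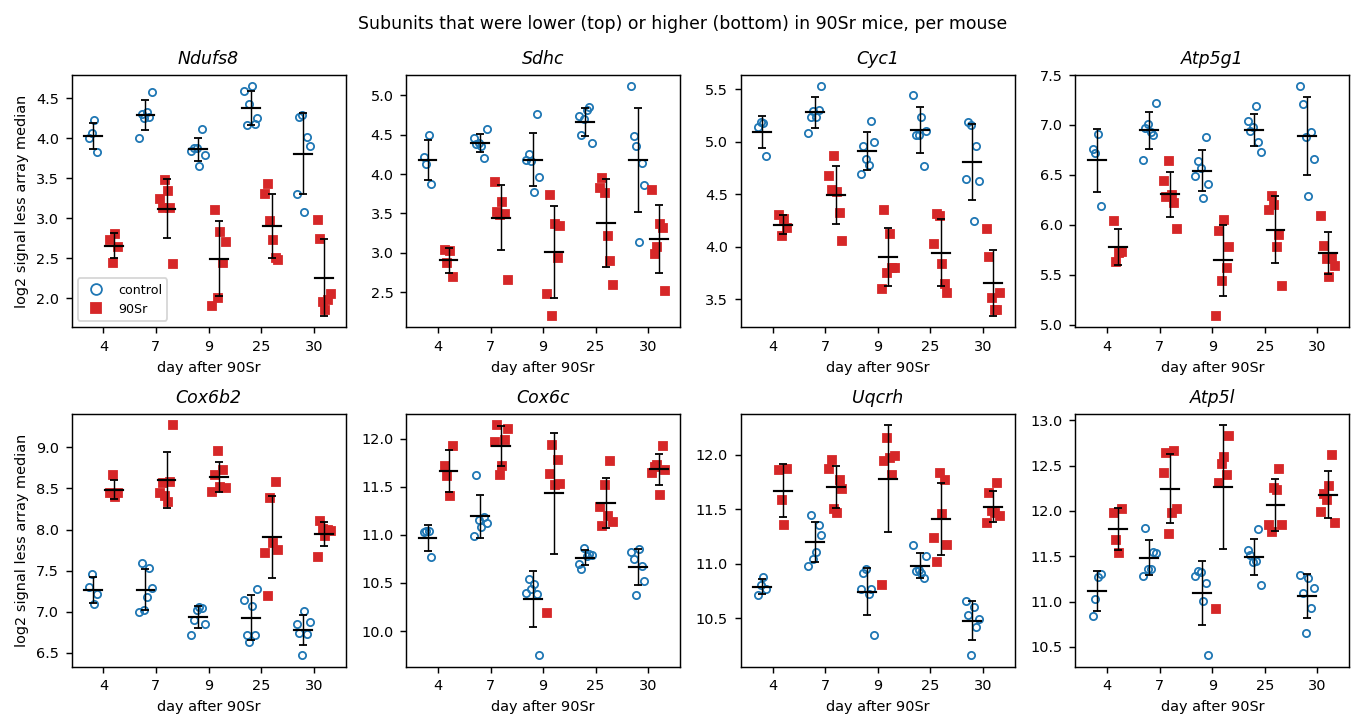
Level of 8 members in every mouse (log2 processed signal less the array median, y axis) by day (x axis), open circles control and filled squares 90Sr-injected mice, with bars for mean and SD. Ndufs8, Sdhc, Cyc1 and Atp5g1 (top) sit lower in 90Sr-injected mice, and Cox6b2, Cox6c, Uqcrh and Atp5l (bottom) sit higher, with replicate 1 of the 90Sr-injected group at day 9 among the controls for Cox6c, Uqcrh and Atp5l.

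Complex III split by role. Of its 4 core proteins, 3 had mean changes below 0, while 4 of its 5 small accessory subunits had mean changes above 0. The median change of the 9 was 0.16, 0.13, 0.51, -0.18 and 0.31, and was above 0 in 17 of 20 cases over days and scalings. Under normexp with each array's median background this median was below 0 at every day, between -0.66 and -0.22. Cyc1, the cytochrome c1 that hands electrons to cytochrome c (probe at chr15:76175938-76175997, mm9), was lower on every day. Day 4 levels were 5.14, 5.19, 5.18 and 4.86 in controls and 4.30, 4.10, 4.27 and 4.18 in 90Sr-injected mice. At day 7 the lowest, median and highest levels were 5.08, 5.26 and 5.53 against 4.06, 4.53 and 4.86, and at day 9 4.69, 4.90 and 5.20 against 3.60, 3.80 and 4.35. At day 25 they were 4.77, 5.08 and 5.44 against 3.56, 3.94 and 4.31, and at day 30 4.25, 4.81 and 5.19 against 3.4, 3.54 and 4.17. The groups did not overlap at any of the 5 days. The changes were -0.88, -0.78, -1.01, -1.16 and -1.15 (SE 0.12, 0.14, 0.18, 0.17 and 0.21, adjusted p 0.000483, 0.000457, 0.000517, 0.00019 and 0.000388, limma), and with the slide as a block -0.79, -1.13, -0.76 and -0.76 at days 7 to 30, with adjusted p of 0.0267, 0.0245, 0.179 and 0.174.

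Uqcrfs1, the Rieske iron-sulfur protein, had changes of -0.77, -0.49, -0.40, -0.86 and -0.45 and was lower by adjusted p at days 4, 7 and 25. Uqcrc1, one of the core proteins, had changes of -0.70, -0.34, -0.42, -0.93 and -0.73 and was lower at days 4, 25 and 30. Its partner Uqcrc2 had changes of 0.16, 0.13, 0.51, -0.18 and 0.31 and passed, as higher, at day 9 alone. The calls of Uqcrc1 and Uqcrfs1 moved with the scaling. Under the 4 scalings the change of Uqcrfs1 ran from -0.77 to -0.29 at day 4 and passed under all of them at day 25 alone, and that of Uqcrc1 passed under all of them at days 25 and 30.

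Uqcrh, the acidic hinge protein that contacts cytochrome c1, was higher on every day under the 4 scalings, but at -0.12 on day 25 under normexp with each array's median background. At day 4 its level was 10.71, 10.80, 10.88 and 10.77 in controls and 11.86, 11.59, 11.36 and 11.87 in 90Sr-injected mice. At day 9 the lowest, median and highest levels were 10.34, 10.77 and 10.95 in controls and 10.80, 11.95 and 12.16 in 90Sr-injected mice, with replicate 1 of the latter among the controls. At day 30 they were 10.16, 10.51 and 10.66 against 11.37, 11.47 and 11.74, with no overlap. The changes were 0.88, 0.51, 1.04, 0.43 and 1.05 (SE 0.14, 0.12, 0.23, 0.17 and 0.15, adjusted p 0.000975, 0.00395, 0.00198, 0.0326 and 0.000122, limma). In the fit with the slide as a block, they were 0.56, 0.82, 0.16 and 1.06 at days 7 to 30, with adjusted p of 0.0776, 0.0989, 0.705 and 0.068. Uqcrb, which lies near the ubiquinone site, was the exception among the small subunits, with changes of -0.40, -0.39, -0.19, -0.57 and -0.47. Cycs, cytochrome c itself, had changes of -0.08, 0.27, 0.17, -0.30 and 0.04 and did not pass at any day. A second probe of Cycs had a mean change of -0.78, against 0.02 for the one used, so the direction of Cycs depends on the probe.

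Complex IV was the only complex in which the members' median was above 0 at every day under all 4 scalings. It was 0.61, 0.57, 0.74, 0.32 and 0.85 on the array-median scale and between 0.29 and 1.13 over the scalings. Under normexp with each array's median background it was between -0.13 and 0.25 and was below 0 at days 9 and 25, so the direction of complex IV against the array depends on the background correction. Of its 16 detected members 8, 12, 9, 8 and 10 were higher by adjusted p (limma), and Cox5b at day 25 was the only lower one. The higher share of all genes by this rule was 20.3%, 24%, 15.2%, 25.8% and 34.3%. Catalysis in complex IV rests on mitochondrially encoded subunits, and the nuclear-encoded members measured here surround them.

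Cox6b2, known as the testis isoform of the subunit that faces cytochrome c, had the highest mean change of all members (probe at chr7:4703488-4703547, mm9). Its level at day 4 was 7.30, 7.46, 7.09 and 7.21 in controls and 8.45, 8.66, 8.40 and 8.44 in 90Sr-injected mice. At day 7 the lowest, median and highest levels were 6.99, 7.24 and 7.59 against 8.33, 8.51 and 9.27, and at day 9 6.71, 6.96 and 7.06 against 8.46, 8.59 and 8.96. At these days every 90Sr-injected mouse lay above every control. At day 25 the levels were 6.63, 6.90 and 7.28 against 7.19, 7.79 and 8.58, where 1 mouse overlapped, and at day 30 6.47, 6.80 and 7.01 against 7.67, 7.99 and 8.10, with no overlap. The changes were 1.22, 1.33, 1.71, 0.98 and 1.17 (SE 0.13, 0.17, 0.16, 0.23 and 0.15), 1.97- to 3.27-fold higher, with adjusted p of 0.000172, 0.000123, 1.38e-05, 0.00211 and 7.56e-05 (limma). Fitted with the slide as a block, they were 1.57, 1.62, 0.45 and 1.08 at days 7 to 30, with adjusted p of 0.00437, 0.00704, 0.412 and 0.0657. Under normexp with each array's median background the changes of Cox6b2 were 0.66, 0.90, 0.92, 0.42 and 0.64. The common isoform Cox6b1 had changes of 0.27, 0.27, 0.40, 0.06 and 0.65 and passed at day 30 alone.

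Cox6c, a small membrane subunit, was higher on every day under the 4 scalings. Day 4 levels were 11.03, 11.04, 11.04 and 10.77 in controls and 11.72, 11.61, 11.40 and 11.92 in 90Sr-injected mice. At day 30 the lowest, median and highest levels were 10.37, 10.71 and 10.85 against 11.42, 11.70 and 11.92. The groups did not overlap at days 4, 25 and 30 and overlapped by 1 mouse at days 7 and 9. The changes were 0.69, 0.73, 1.1, 0.57 and 1.02 (SE 0.14, 0.14, 0.27, 0.15 and 0.16, adjusted p 0.00339, 0.000619, 0.00409, 0.00423 and 0.000151, limma), and with the slide as a block 0.73, 0.84, 0.39 and 1.08 at days 7 to 30, with adjusted p of 0.0353, 0.133, 0.329 and 0.0679.

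Several complex IV subunits have isoforms named for the tissue they are known from. Cox6a1 and Cox8a, the widely expressed isoforms, had changes of 0.62, 0.77, 1.05, 0.47 and 0.85 and of 0.60, 0.60, 0.85, 0.37 and 0.85, all with an adjusted p under 0.05 (limma), but below 0 at day 25 under normexp with each array's median background (Cox6a1 -0.095, Cox8a -0.17). The muscle isoform Cox6a2 had changes of 0.59, 0.47, -0.34, -0.15 and 0.49, and the testis or muscle isoforms Cox7b2, Cox8b and Cox8c did not pass the detection filter and were well above background on 0, 2 and 1 of the 56 arrays. Cox7a2, the widely expressed form, had changes of 0.74, 0.90, 1.27, 0.47 and 0.92, and Cox7b changes of 0.72, 0.71, 0.96, 0.49 and 0.91, again with values below 0 at day 25 under that normexp (Cox7a2 -0.078, Cox7b -0.054). Cox7a1, known from heart and skeletal muscle, had changes of 1.48, 0.56, 0.05, 0.78 and 1.3, and Cox4i2, known from lung, changes of 0.81, 0.58, 0.07, 0.88 and 1.51. Cox4i1, the common form of the latter, had changes of 0.22, 0.21, 0.52, -0.08 and 0.04. The supercomplex factor Cox7a2l had changes of -0.19, -0.14, -0.04, -0.49 and -0.23. Ndufa4 had changes of 0.49, 0.44, 0.84, 0.28 and 0.85, and its relative Ndufa4l2 was well above background on only 5 arrays. Ndufa4l2 passed the detection filter and so enters the counts, medians and means of complex IV. Of 10 cardiac muscle genes, listed after the values were seen because blood was drawn through the heart, 5 passed the detection filter, 0 cleared the background on every array and 7 did so on fewer than 28. The 5 had median changes of 0.78, 1.23, 1.36, 0.49 and 0.13, with 2, 4, 4, 0 and 0 higher by adjusted p and 0 lower. Their summed level on the log2 scale was between 1.72 and 3.39 in control mice and between 2.38 and 4.77 in 90Sr-injected mice, and their part in the change of the muscle isoforms was not tested.

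In complex V the subunits of the catalytic head and those of the stalk and membrane part each held members of both directions. By adjusted p (limma) 4, 5, 4, 5 and 4 of 16 were lower and 6, 8, 7, 7 and 8 were higher. All genes were lower in 33.6%, 33.6%, 27.3%, 38.2% and 29.7% and higher in 20.3%, 24%, 15.2%, 25.8% and 34.3% by this rule. The median change of the 16 was 0.05, 0.33, 0.36, -0.14 and 0.35. It was above 0 in 18 of 20 cases over days and scalings, and below 0 at every day under normexp with each array's median background, between -0.60 and -0.10. In the head, Atp5b, the catalytic subunit beta, had changes of 0.34, 0.56, 1.05, 0.47 and 1.04 (adjusted p 0.0426, 0.00308, 0.00116, 0.0459 and 0.000189, limma) that turned to -0.19 at day 4 and -0.082 at day 25 under that normexp, and Atp5d, the subunit delta of the central stalk, changes of -0.65, -0.74, -0.77, -1.12 and -1.26 (adjusted p 0.00354, 0.00228, 0.00543, 0.000227 and 0.00058, limma).

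The c subunit, which forms the rotor ring, is encoded by Atp5g1, Atp5g2 and Atp5g3, whose mature proteins are the same. Atp5g1 was lower on every day. At day 4 its level was 6.76, 6.72, 6.91 and 6.19 in controls and 6.04, 5.63, 5.72 and 5.73 in 90Sr-injected mice. At day 7 the lowest, median and highest levels were 6.65, 6.95 and 7.22 against 5.96, 6.29 and 6.64, and at day 9 6.27, 6.53 and 6.88 against 5.09, 5.67 and 6.05. At day 25 they were 6.73, 6.96 and 7.19 against 5.39, 6.03 and 6.29, and at day 30 6.29, 6.90 and 7.39 against 5.48, 5.67 and 6.09. There was no overlap at any day. The changes were -0.87, -0.64, -0.90, -1.0 and -1.18 (SE 0.18, 0.13, 0.20, 0.17 and 0.20, adjusted p 0.00316, 0.00121, 0.002, 0.000331 and 0.000255, limma), and with the slide as a block -0.61, -1.13, -0.56 and -0.85 at days 7 to 30, with adjusted p of 0.0576, 0.0357, 0.227 and 0.145. Atp5g3 had changes of -0.79, -0.65, -0.78, -1.04 and -0.70 and passed at every day. Atp5g2 had changes of -0.42, 0.35, -0.27, -0.18 and -0.82 and passed at none, but its second probe had a mean change of -0.94, and its control level differed by 1.24 between days.

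Atp5l, subunit g of the membrane part, was higher on every day under the 4 scalings, with changes from 0.017 (day 25) to 0.47 (day 30) under normexp with each array's median background. Its level at day 4 was 10.84, 11.03, 11.27 and 11.31 in controls and 11.98, 11.68, 11.54 and 12.02 in 90Sr-injected mice. At day 9 the lowest, median and highest levels were 10.41, 11.24 and 11.34 against 10.92, 12.46 and 12.83, with replicate 1 of the 90Sr-injected mice among the controls. At day 30 they were 10.65, 11.12 and 11.29 against 11.87, 12.15 and 12.62, with no overlap. The changes were 0.69, 0.76, 1.17, 0.58 and 1.11 (SE 0.17, 0.17, 0.29, 0.16 and 0.18, adjusted p 0.00654, 0.00217, 0.00439, 0.00763 and 0.000182, limma), and with the slide as a block 0.68, 0.81, 0.32 and 1.05 at days 7 to 30, with adjusted p of 0.119, 0.152, 0.446 and 0.0873. The array had 6 probes for Atp5l, with mean changes from 0.75 to 0.93. The brightest is placed by the file at chrX:35750466-35750525 (mm9), while RefSeq has the gene on another chromosome, so signal from a near-identical copy cannot be told apart from Atp5l. It was the only one of the 95 members whose probe and gene were placed on different chromosomes. Atp5j2, subunit f, had changes of 0.23, 0.52, 0.18, 1.19 and 1.67, with a control level that differed by 1.91 between days. Atp5s, known as coupling factor B and counted with complex V by its name, had changes of 0.80, 1.05, 1.16, 0.47 and 0.62.

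Because each complex could be compared with another inside the same mouse, the difference between complexes did not depend on a constant that scales an array. Such a constant does not remove a dependence of change on level. Median control levels were 5.49 (complex I core), 5.09 (II), 7.69 (IV) and 7.6 (V). Averaged over the days, all genes at control levels of 4 to 6, 6 to 8 and above 8 had median changes of -0.305, 0.053 and 0.258. Members in these bands had -0.644, -0.008 and 0.683. The rise with level did not hold over the whole array. At control levels of 2 to 4, 0 to 2 and below 0, all genes had -0.553, -0.023 and 0.61. Spearman's correlation of control level with mean change was -0.258 over all genes and 0.578 over the 92 members. The part of level in the differences between complexes was not tested. The mean level of the detected complex IV members less that of the 7 complex I core subunits, each gene first centred on its mean in the control mice, was between -0.33 and 0.61 in the 28 control mice and between 0.61 and 1.92 in the 28 90Sr-injected mice. By day the controls averaged 0.01 ± 0.11 (SD, n = 4), 0.00 ± 0.18, 0.08 ± 0.24, -0.10 ± 0.15 and 0.01 ± 0.32 (n = 6 at the later days). The 90Sr-injected mice averaged 1.45 ± 0.19 (n = 4), 1.2 ± 0.29, 1.41 ± 0.31, 1.18 ± 0.39 and 1.56 ± 0.20. The groups did not overlap at any day, and the differences were 1.44, 1.2, 1.33, 1.28 and 1.55. Complex IV less complex II differed between the groups by 1.61, 1.32, 1.45, 1.39 and 1.48, again without overlap. Complex IV less complex V gave the smaller differences of 0.57, 0.40, 0.36, 0.36 and 0.52, also without overlap within a day. No p is given for these means, since the members were grouped with earlier results known.

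**Figure D3:**
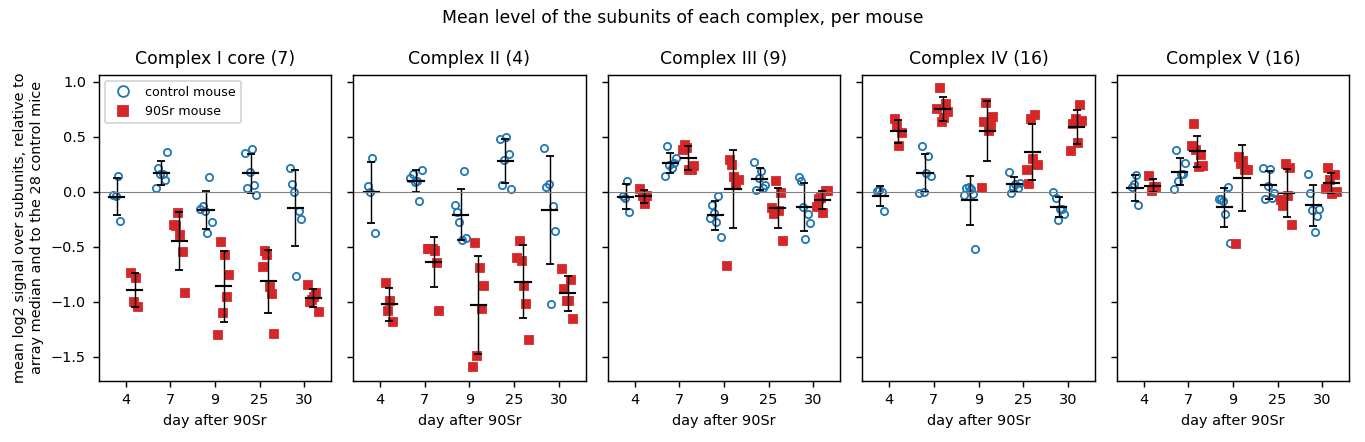
Mean level of the detected members of the complex I core and of complexes II, III, IV and V in each mouse (log2 scale, each gene less its mean over the 28 control mice, y axis) by day, for control and 90Sr-injected mice. The complex I core and complex II lie lower in 90Sr-injected mice, complex IV lies higher on this array-median scale, and complexes III and V lie near the controls.

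With the slide in the fit more members passed at day 7, and fewer at days 9, 25 and 30. The change in this fit rests on the 1 mixed slide of each day, 2 control against 2 90Sr-injected mice. Counts with and without the block therefore compare unlike numbers of mice. In the fit with the slide as a block, fitted at days 7, 9, 25 and 30, 9, 3, 1 and 1 members passed the study's threshold, where 7, 24, 21 and 28 had done so without it, and 10.6%, 5.71%, 0.692% and 1.76% of all genes passed. The sign was kept by 89, 85, 87 and 90 of the 92 members, and by all members that had been called at those days without the block. Of the 16 lower members named above, 16 kept their sign at each of the 4 days and 15, 13, 0 and 1 had an adjusted p under 0.05. Of the 10 higher members, 10 kept their sign and 6, 1, 0 and 0 had one. These members, and those called without the block, were picked on the same arrays, mixed slides included. A kept sign is therefore no separate support. The share of all genes with an adjusted p under 0.05 in this fit is not given. The mixed slide of each day, taken alone, gives the same changes as the block fit and is no separate check. On it the median change at days 7, 9, 25 and 30 was -0.89, -1.1, -0.72 and -1.02 for the complex I core. It was -0.97, -1.13, -0.68 and -0.57 for complex II and 0.59, 0.67, 0.12 and 0.73 for complex IV.

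**Figure D4:**
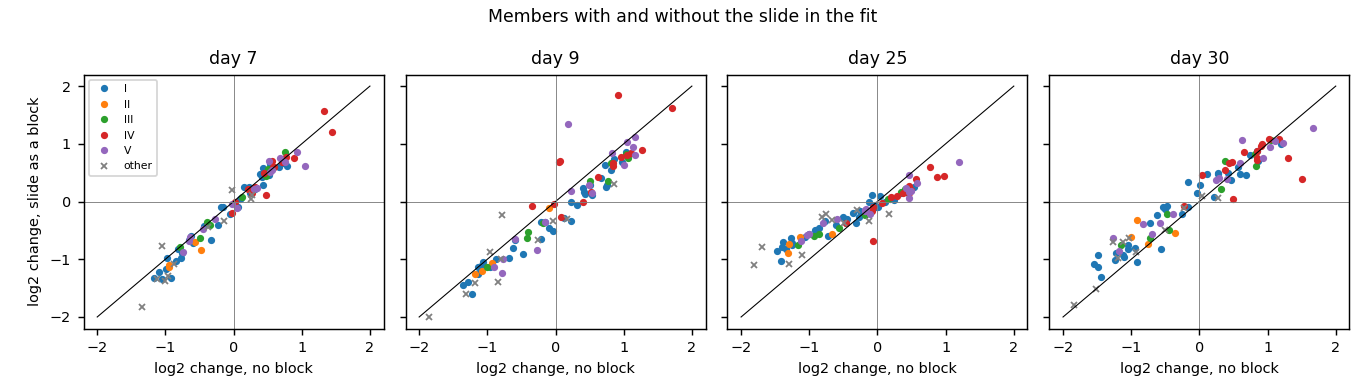
Log2 change of each of the 92 members with the slide as a block (y axis) against the change without it (x axis), 1 panel each for days 7, 9, 25 and 30, colored by complex, with the line of equal values. Most points lie in the quadrants of equal sign, and at day 25 they lie closer to 0 with the block.

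For 12 of the 92 members the change was not the same at every day (limma F test of the interaction, adjusted p under 0.05), where 22.9% of all genes did so. The number was 2 when the slide entered as a random block, and with the slide as a fixed block at days 7 to 30 it was 0, against 11 without the block on the same days. Ndufaf7 (adjusted p 0.00189), Cox7a1 (0.00304), Ndufs1 (0.00397), Ndufa12 (0.0128) and Cox4i2 (0.0131) had the lowest values without a block. For Cox7a1 and Cox4i2 the change was near 0 at day 9. The 4 control arrays of 1 slide at day 9 had Cox7a1 levels of 3.71, 3.48, 3.60 and 3.70, against 2.74 and 2.56 in the other control mice of that day, and 2.91 to 3.92 in the 90Sr-injected mice. For Cox4i2 the same 4 controls lay at 5.22, 5.29, 5.22 and 5.14, and the other two at 4.49 and 4.02. Without those 4 arrays 3 members passed the study's threshold at day 9 in place of 24, in a comparison with fewer mice. Levels in the control mice also differed between days, for 59 members (limma F test, adjusted p under 0.05), where 56.4% of all genes did so, and for 18 with the slide as a random block.

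For 30 of the members the array held further probes, 41 in all. Of these 41 probes, 2 had a mean change of the opposite sign to the brightest probe of the gene, and 3 differed from it by more than 0.5 on the log2 scale. They belonged to Cycs, Ndufv3, Atp5g2 and Ndufab1. No member was saturated on all arrays of a group.

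Other genes of the same organelle were taken from lists of general knowledge and are given on the array-median scale. For counts by adjusted p in these lists and in the marker lists, the shares of all genes are those given above by day. The 13 mitochondrially encoded subunits, which lie in the membrane parts of complexes I, III, IV and V, had median changes of -0.07, 0.38, 0.26, -0.19 and 0.30. By adjusted p (limma) 2, 0, 0, 3 and 1 of them were lower and 2, 7, 1, 1 and 6 were higher. Of these probes 6 are placed by the file on chromosome 1, where the nuclear genome holds a copy of mitochondrial sequence, so their source is uncertain. COX1, the catalytic subunit of complex IV, was higher at all 5 days, by 0.39, 0.64, 0.96, 0.47 and 1.1, and CYTB of complex III had changes of -0.07, 0.21, 0.10, -0.31 and 0.11.

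Of 13 enzymes of the tricarboxylic acid cycle, which feeds complexes I and II, 11, 10, 8, 11 and 8 were lower by adjusted p and 0, 1, 1, 0 and 1 higher. Their median change was -1.02, -0.95, -1.08, -1.19 and -0.99, beside -0.96, -0.75, -1.01, -1.21 and -0.83 for complex II. Fh1, fumarate hydratase, had changes of -1.80, -1.43, -1.64, -1.84 and -2.0, and citrate synthase (Cs) changes of -1.63, -0.96, -1.21, -1.38 and -1.39. Of 13 detected regulators of mitochondrial biogenesis 10, 11, 7, 11 and 8 were lower and 0, 1, 0, 1 and 1 higher, with a median of -0.85, -0.69, -0.78, -1.23 and -0.67. Tfam, the packaging and transcription factor of mitochondrial DNA, had changes of -1.63, -1.40, -1.71, -1.63 and -1.42. Esrra, a nuclear receptor that acts on respiratory genes, had changes of -1.60, -1.19, -1.43, -1.76 and -1.86, and Nrf1, whose motif was searched above, changes of -1.24, -1.04, -1.1, -1.24 and -0.91. For 28 detected assembly factors outside the name rule the median was -0.36, -0.48, -0.32, -0.53 and -0.69, and for 17 detected enzymes of glycolysis, outside the mitochondrion, -0.20, -0.25, -0.52, -0.41 and 0.00.

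Markers of blood cell types moved in the same samples. Of 12 B cell markers 11, 10, 10, 11 and 10 were lower by adjusted p (limma) and 0, 0, 0, 1 and 1 were higher, with median changes of -2.25, -1.78, -2.14, -2.40 and -2.30. Their summed level on the log2 scale was between 9.54 and 10.69 in control mice and between 7.16 and 9.34 in 90Sr-injected mice. Of 9 reticulocyte markers 5, 9, 9, 7 and 9 were higher and none was lower, with median changes of 0.55, 0.58, 1.15, 0.56 and 1.21. At day 4 no reticulocyte marker passed the study's threshold. Their summed level was between 14.55 and 15.76 in control mice and between 15.37 and 16.45 in 90Sr-injected mice. Of 13 T cell markers 7, 9, 6, 9 and 8 were lower and 0, 2, 0, 1 and 2 were higher, with summed levels of 9.54 to 10.87 and 9.05 to 11.65. Of 10 platelet markers 3, 0, 0, 0 and 9 were higher and none was lower, with median changes of 0.13, 0.05, 0.21, -0.06 and 0.77, with summed levels of 13.61 to 14.81 and 13.41 to 14.98. Of 7 NK cell markers 1, 3, 4, 5 and 3 were lower, of 11 neutrophil markers 4, 1, 1, 6 and 0, and of 7 detected monocyte markers 3, 4, 4, 6 and 4, and 1 marker of each list was higher at a single day. The median changes of the NK cell markers ran from -0.92 to -0.40, of the neutrophil markers from -0.84 to -0.18, and of the monocyte markers from -1.35 to -0.64. In manual counts of blood smears, the study found control and irradiated mice not significantly different at any day. All 12 B cell and all 9 reticulocyte markers passed the detection filter, and the part of these cells in the changes of the respiratory subunits was not tested.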

How the data were processed

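Whole blood RNA of 56 mice was hybridised to one-color Agilent arrays, and groups were taken from the sample labels. The deposited scanner files hold intensity values per spot on a linear scale, written by Agilent Feature Extraction (10.7 in the submitters' processing notes, 11.5.1.1 in the file headers), whose processed signal is already background-subtracted. The deposited series matrix holds the authors' processed log2 values, which served as an alternative and hold 45 of the members. Over the 14162 probes matched, their column medians ran from 4.32 to 5.10, and each column followed the scanner values, both centred per probe, with a correlation of 0.982 to 0.996 and a slope of 0.966 to 1.01, so they are log2 values in the same direction and not centred per gene. Here log2 of the processed signal less the array's median over non-control spots was used. Following the study's methods, a probe was dropped where 25% or more of arrays had it as a non-uniform outlier or not significantly above background (23317 of 39429 probes stayed), and the brightest probe stood for a gene. Each day was fitted on its own with limma 3.58.1 (R 4.3.3, statmod 1.5.0) over all 18796 genes. The study's threshold, an unadjusted p under 0.001 and a change of at least 2-fold, defined a call, and Benjamini-Hochberg adjusted p-values are given beside it. Alternatives were other scalings, background corrections, filters, probes, the slide as a block, all groups in 1 fit, replicate numbers as a block and each array left out. The fits were tested on simulated data with independent noise and no effect of slide or scan date, so that test cannot speak to those effects. Figures used Python 3.11.15, pandas 2.3.3, numpy 2.4.6 and matplotlib 3.10.9.

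The members, gene lists and tests were chosen with earlier results of these data known. Genes described singly were, in each role class, those with the lowest and the highest mean change, the members of complex II, cytochrome c1, cytochrome c, the Rieske and core proteins of complex III, the isoform families of complexes IV and V, the members called at all 5 days or in both directions, and the 5 with the lowest adjusted p of the interaction with day. Other genes named were chosen after their values were seen. The labels do not say whether mice of a group were handled together, so p-values measure the spread between these mice. The number of arrays limits the precision. The values of 1 member are not reported here, and it is left out of the heat map.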

Additional observations from a re-analysis of the deposited data

Results flagged for a closer look

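Of 170 groups of 4 to 6 mice examined for complex means and single members, 20 held a mouse whose gap to the rest of its group was past Dixon's 95% limit, where about 8.5 would be by chance. Replicate 1 of the 90Sr-injected mice at day 9 stood apart in the mean level of complex I (-1.04), complex III (-0.68), complex IV (0.03) and complex V (-0.48), relative to the control mean, and in Cox6c (10.19) and Atp5l (10.92). Replicate 6 of the day 9 controls stood apart in complex IV (-0.52), Cox6c (9.75) and Atp5l (10.41). Replicate 6 of the 90Sr-injected mice at day 7 stood apart in complex II (-1.08), Ndufs8 (2.42), Sdhc (2.66) and Cox6b2 (9.27). Replicate 4 of the day 4 controls did so in complex IV (-0.17), Cyc1 (4.86) and Cox6c (10.77). Single cases were complex I in 90Sr-injected mice, with -0.82 in replicate 6 at day 25 and -0.24 in replicate 1 at day 4, Atp5sl in replicate 4 of the day 30 controls (4.27) and Cox6c in replicate 2 of the day 7 controls (11.62).

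The change differed between days by the interaction test (limma, adjusted p) for 12 members, of which 9 are given here and 3 are not described singly. The 9 were Ndufaf7 (0.00189), Cox7a1 (0.00304), Ndufs1 (0.00397), Ndufa12 (0.0128), Cox4i2 (0.0131), Uqcrc2 (0.027), Atp5b (0.037), Cox6a2 (0.0468) and Uqcrh (0.0481). With the slide as a fixed block at days 7 to 30 none of the 92 members passed this test.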

How the results depend on the processing

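Of 175 values of the counts and medians under 19 other settings, 106 moved little and 69 moved. Members called at day 4 (13) were 20 under the 75th percentile, 58 at the adjusted p alone, 5 under quantile normalization, 22 under normexp with each array's median background and 0 under normexp with each spot's own background. Members called at day 7 (7) were 14, 68, 2, 16 and 0 under the same settings and 11 in the series matrix. Members called at day 9 (24) were 60 at the adjusted p alone, 8 under quantile normalization, 0 under normexp with each spot's own background, 3 with the slide as a block and 3 without the 4 control arrays of 1 slide. Members called at day 25 (21) were 9 under the 75th percentile, 61 at the adjusted p alone, 8 under the median of bright probes, 8 under quantile normalization, 0 under normexp with each spot's own background and 1 with the slide as a block. Members called at day 30 (28) were 63 at the adjusted p alone, 1 under normexp with each spot's own background and 1 with the slide as a block. They were 4 without the 4 90Sr arrays of 1 slide, those scanned on another date than the controls. Normexp with each spot's own background could not be relied on, since its fitted mean was below 0 on 30 of 56 arrays, against 11 of 56 with each array's median background. The form with each array's median background was not a planned setting.

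The median relative change of members at day 4 (-0.11) was -0.38 with no filter, -0.85 under normexp with each spot's own background, -0.28 with each array's median background, -0.008 among probes well above background on 75% of arrays, -0.70 in the series matrix and -0.64 under the variation filter. The median relative change of members at day 7 (0.09) was -0.16, -0.21, -0.16, -0.60 and -0.47 under no filter, both forms of normexp, the series matrix and the variation filter. The median relative change of members at day 9 (0.15) was -0.23 with no filter, -0.23 under normexp with each array's median background, -0.57 in the series matrix and -0.31 under the variation filter. The median relative change of members at day 25 (-0.12) was -0.62 with no filter, 0.50 and -0.42 under the 2 forms of normexp, 0.04 among probes well above background on 75% of arrays, -0.97 in the series matrix, 0.019 with the slide as a block and -0.91 under the variation filter. The median relative change of members at day 30 (-0.13) was -0.49 with no filter, 0.47 and -0.39 under the 2 forms of normexp, -0.35 under quantile normalization, -0.81 in the series matrix and -0.75 under the variation filter. Members that differ between control days (59) were 39 under the 75th percentile, 38 under the median of bright probes, 5 under normexp with each spot's own background, 10 in the series matrix, 18 with the slide as a random block and 24 under the variation filter. Members whose effect differs between days (12) were 20, 27, 0, 5, 2 and 2 in that order, 26 under quantile normalization and 0 with the slide as a block at days 7 to 30. The cause of these moves was not tested.

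Of 5052 values of the members described singly under the other settings 221 changed sign, 57 of them under normexp with each spot's own background, 39 under normexp with each array's median background, 27 under the 75th percentile and 41 with 1 array left out. In 5 of the 221 the value was past the study's threshold under 1 of the settings compared. These were Cox6b2 at day 4 (-0.46), Atp5g1 at day 25 (0.074), Atp5g3 at day 25 (0.037) and Sdhb at day 25 (0.018), all under normexp with each spot's own background, and Cycs at day 30 in the series matrix (-1.18).

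With each array left out in turn, members called at day 4 ran from 10 to 18, at day 7 from 5 to 11 (11 without replicate 3 of the 90Sr-injected mice), at day 9 from 15 to 26 (15 without replicate 6 of the controls), at day 25 from 17 to 23 and at day 30 from 24 to 33. The median relative change of members at day 4 ran from -0.14 to -0.08, at day 7 from 0.05 to 0.16, at day 9 from 0.13 to 0.21, at day 25 from -0.16 to -0.11 and at day 30 from -0.24 to -0.053.

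Replicate numbers were not taken as pairs, since not every pair of a day had a correlation above 0.1: 8 of 28 pairs had one, and 8 correlated best with their own number. At day 4 these were 3 of 4 and 4 of 4 pairs, with a mean correlation of 0.178 for the same number and -0.059 for other numbers. With the replicate block 13, 7, 15, 21 and 28 members were called at the 5 days, against 13, 7, 24, 21 and 28 without it.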
